A study of Mus musculus with 15 samples.

Results

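The mouse mitochondrial genome carries 37 genes, and their transcripts were followed in the tibialis anterior, a fast leg muscle, of mice with and without *Mtm1*. The members were the gene identifiers that the GRCm38 annotation places on the mitochondrial chromosome, all with symbols beginning mt-, and they comprised 13 mRNA genes, 2 rRNA genes and 22 tRNA genes. Of these, 29 were among the 30672 genes of the count table and the other 8 (*mt-Atp8* and the tRNA genes *mt-Ty*, *mt-Td*, *mt-Tk*, *mt-Tg*, *mt-Th*, *mt-Ts1* and *mt-Ts2*) are not analysed here. The animals were male 129Pas mice aged 7 weeks, either wild type (WT) or hemizygous for loss of *Mtm1* (Mtm1-/y), each genotype without and with tamoxifen (TAM). There were 4 samples each in the WT, WT + TAM and Mtm1-/y groups and 3 in the Mtm1-/y + TAM group, each taken as a separate mouse. *Mtm1* encodes myotubularin, a lipid phosphatase whose loss causes X-linked myotubular myopathy, and the series asked whether tamoxifen, an estrogen receptor modulator, has a use in that disease. Dose, route and duration of tamoxifen are not stated in the labels.

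Mitochondrial DNA is transcribed from both strands as long RNAs, which are cut at the tRNA genes that punctuate them into mRNAs, rRNAs and tRNAs. The mRNAs encode subunits of respiratory complexes I, III and IV and of ATP synthase, whereas the remaining subunits of these complexes, and all of complex II, come from nuclear genes. The L strand template gives only *mt-Nd6* among the mRNAs. Skeletal muscle relies on these complexes for oxidative ATP supply, and slow fibres hold more mitochondria than fast ones.

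Counts per library ranged from 18042558 to 45823277. The targeted gene, *Mtm1*, lay at 13.5 to 17.7 CPM (counts per 1000000, scaled by library size and TMM factor) in the 8 WT and WT + TAM libraries and at 2.91 to 3.71 CPM in the 7 libraries of the mutants, so no library went against its genotype label. The summed level of 9 fast fibre markers, which define the labelled muscle, was 138562 to 221188 CPM. WT + TAM replicate 1 stood apart, with the highest summed fibroblast markers (3065 CPM, against 324 to 1611 CPM in all other libraries) and slow fibre markers (8080 CPM, against 3444 to 7282 CPM). Mtm1-/y replicate 1 had the lowest fibroblast sum and the lowest correlation with its own group. Member calls that change without either are given without it too. The libraries were bulk muscle, in which fewer cells of a type and less RNA per cell cannot be told apart.

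Several members share their sequence with nuclear copies, which bears on how reads can be assigned to them. Chromosome 1 of GRCm38 carries, on the minus strand between 24611535 and 24615565, a run of pseudogenes that mirrors *mt-Co2* to *mt-Nd4*. Of all 50-base windows in the member genes, those also present in an annotated nuclear transcript made up 100% for *mt-Co2*, 99.9% for *mt-Co3*, 99.5% for *mt-Atp6*, 98.8% for *mt-Nd4l* and 98.0% for *mt-Nd3*. These 5 mRNAs, which encode 2 subunits of complex IV, a subunit of ATP synthase and 2 subunits of complex I, never exceeded 11 counts in a library. Whether the sharing set these low counts was not tested. The next most shared were *mt-Nd4* (62.2%) and *mt-Co1* (51.1%), which had 113912 to 390796 and 250399 to 817748 counts. By contrast, 0% of windows were shared for *mt-Nd1*, *mt-Cytb* and *mt-Nd6*, and 8.19% and 7.61% for *mt-Nd2* and *mt-Nd5*. Genes with more than 50% shared windows are given as uncertain below, because the labels do not state how reads with more than 1 possible origin were counted. The nuclear copies had 9 to 23 counts per library for *Gm28661* (the copy of *mt-Co2*), 9 to 60 for *Gm10925* (of *mt-Atp6*) and 93 to 324 for *Gm13340* (of *mt-Co1*).

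Bases 301 to 400 of *mt-Co3* (chrM:8607-9390, plus strand) and of its copy *Gm28437* (chr1:24613189-24613971, minus strand) show how close such a copy can be, and the same stretch of *mt-Cytb* (chrM:14145-15288, plus strand) and its copy *Gm11410* (chr4:80003989-80005131, plus strand) shows a distant one. All 4 were read 5′ to 3′ from GENCODE M21 transcripts of GRCm38, and capitals mark bases that differ within a pair, of which there were 0 in the first pair and 10 in the second.
mt-Co3: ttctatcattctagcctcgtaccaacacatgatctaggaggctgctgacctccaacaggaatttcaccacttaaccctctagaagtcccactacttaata
Gm28437: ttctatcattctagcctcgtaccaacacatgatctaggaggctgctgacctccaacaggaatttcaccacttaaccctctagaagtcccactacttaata
mt-Cytb: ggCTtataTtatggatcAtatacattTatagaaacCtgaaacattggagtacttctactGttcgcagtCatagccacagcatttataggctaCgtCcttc
Gm11410: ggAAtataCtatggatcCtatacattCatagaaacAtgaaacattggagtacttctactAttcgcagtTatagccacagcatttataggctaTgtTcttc

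**Figure D1:**
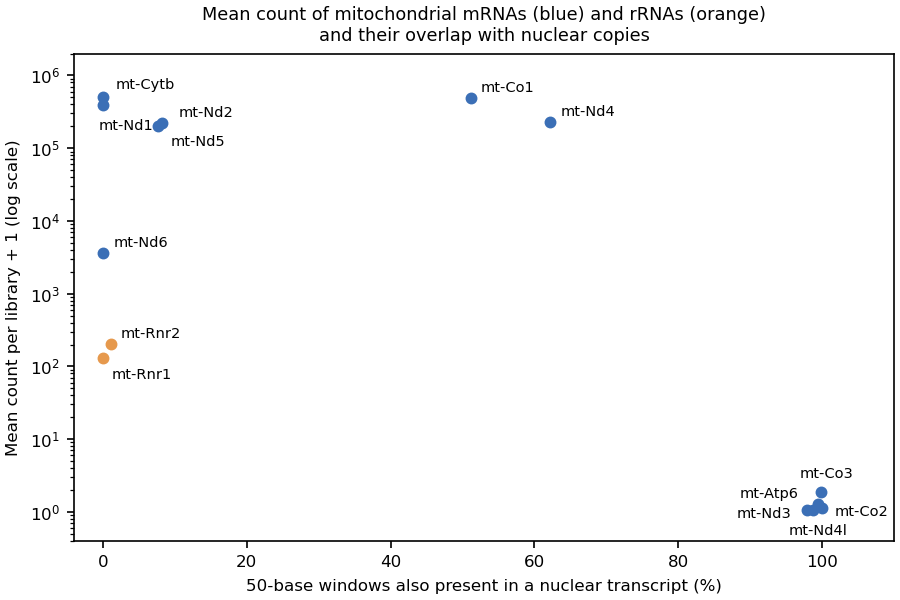
Mean count per library plus 1 (log scale) of the 12 mRNA genes (blue) and 2 rRNA genes (orange) with a row in the table, against the percentage of their 50-base windows present in an annotated nuclear transcript. The 5 mRNAs with 98.0% or more shared windows stayed at or below 11 counts, and the other 7 had at least 1526.

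Of the 29 members with a row, 16 passed the filter on low counts and were tested, namely 7 mRNAs, both rRNAs and 7 tRNAs. The 13 others were the 5 mRNAs above and 8 tRNAs with at most 12 counts in any library (*mt-Tf*, *mt-Tv*, *mt-Ta*, *mt-Tn*, *mt-Tc*, *mt-Tr*, *mt-Tl2* and *mt-Te*). *mt-Tl2* had 0 counts in all 15, which allows up to 3 counts in each, or 0.0655 to 0.166 CPM. *mt-Tq* passed although no Mtm1-/y library reached the filter's 0.305 CPM, against 2 of 4 WT libraries, so it entered through groups where it was higher. The other tested members reached that level in at least 2 libraries of every group, and the 7 mRNAs, both rRNAs, *mt-Tl1*, *mt-Ti* and *mt-Tw* did so in all 15 libraries.

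Among mRNAs compared per kilobase of full gene length in WT muscle, *mt-Cytb* (cytochrome b of complex III) led with 17874 ± 989 CPM per kb (SD, n = 4). It was followed by *mt-Nd1* with 16769 ± 1058, whose range overlapped that of *mt-Cytb*. *mt-Co1*, the catalytic subunit of complex IV, had 12568 ± 526 CPM per kb, *mt-Nd2* 8924 ± 763, *mt-Nd4* 6824 ± 227 and *mt-Nd5* 4706 ± 578, and none of these ranges overlapped that of the neighbour above. *mt-Nd6*, of the opposite strand, had 273 ± 68.5 CPM per kb. The order from *mt-Nd1* down by full length was the same in each of the 15 libraries, whereas *mt-Cytb* lay above *mt-Nd1* in 3 of 4 Mtm1-/y and 2 of 3 Mtm1-/y + TAM libraries. This order depended on the length used. A second length counted only windows not shared with nuclear transcripts, with the whole CPM of each gene kept. Per kilobase of that length, the WT means were 26564 CPM for *mt-Co1*, 18733 for *mt-Nd4*, 18674 for *mt-Cytb* and 17674 for *mt-Nd1*. They were 10201 for *mt-Nd2*, 5234 for *mt-Nd5* and 302 for *mt-Nd6*, so that the uncertain *mt-Co1* and *mt-Nd4* stood first. Reads were not counted by window, so which length applies is not known. *mt-Co1* ranked 4 to 12 and *mt-Cytb* 5 to 12 among all genes by raw count, in every library.

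The mitochondrial share of a library was lower without *Mtm1*. Mitochondrial genes took 7.75%, 8.16%, 7.85% and 7.80% of all counts in the WT libraries and 4.80%, 4.86%, 6.02% and 5.09% in the Mtm1-/y libraries. The means were 7.89% ± 0.188 (SD, n = 4) and 5.19% ± 0.565 (n = 4), and the ranges did not overlap. In WT + TAM muscle the share was 5.57%, 7.40%, 7.38% and 9.33% (mean 7.42% ± 1.54), so that the WT values lay within its range. In Mtm1-/y + TAM muscle it was 5.69%, 4.75% and 5.22% (mean 5.22% ± 0.473, n = 3), within the range of Mtm1-/y libraries apart from the lowest value. WT + TAM replicate 1 was the only library of either wild-type group that reached into the mutant range, and without it the difference of Mtm1-/y + TAM from WT + TAM was −2.82 percentage points instead of −2.20. Without WT + TAM replicate 4, the highest library, it was −1.56. The 95% Wilson interval of a single share was at most ± 0.0115 percentage points, which covers counting error only. Because the share is a sum over members, it was described without a test.

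**Figure D2:**
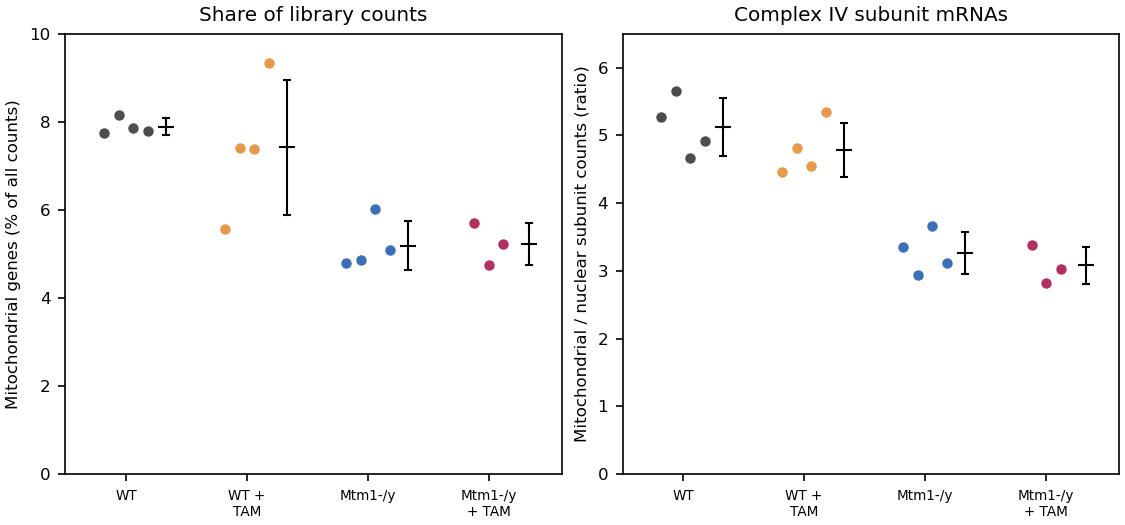
Left, percentage of all counts on mitochondrial genes in each library (points), with group mean and SD (black) for WT, WT + TAM, Mtm1-/y (n = 4 each) and Mtm1-/y + TAM (n = 3). Right, counts of *mt-Co1* alone, uncertain for its shared windows, over nuclear subunit counts of complex IV. All 7 Mtm1-deficient libraries (2.83 to 3.66) sat below all 8 others (4.46 to 5.65).

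Nearly all of this share came from mRNAs. The 2 rRNA genes together had 180 to 686 counts in a library and all tRNA genes 260 to 1358, in libraries selected for polyadenylated RNA. Within the mitochondrial counts, *mt-Cytb* made up 24.5% ± 0.506 in WT and 24.8% ± 1.69 in Mtm1-/y muscle, *mt-Co1* 23.3% ± 0.866 and 24.6% ± 0.588, and *mt-Nd1* 19.3% ± 0.472 and 19.2% ± 1.36, each pair with overlapping ranges. The fraction of *mt-Ti* was lower and separate in Mtm1-/y muscle (0.00339 to 0.00508% against 0.00682 to 0.0127% in WT). So was that of *mt-Tw* (0.00446 to 0.00693% against 0.00755 to 0.0140%), and all other tested members' fractions overlapped. Between WT + TAM and Mtm1-/y + TAM muscle, the ranges of 5 of the 16 tested members' fractions did not overlap. Lower with *Mtm1* loss were *mt-Nd5* (7.60 to 9.55% against 9.84 to 11.3%), *mt-Nd2* (9.68 to 10.4% against 11.2 to 11.7%), *mt-Nd6* (0.113 to 0.186% against 0.189 to 0.268%) and *mt-Tm* (0.000543 to 0.000982% against 0.00171 to 0.00198%). *mt-Cytb* was higher, at 24.4 to 26.1% against 23.7 to 24.2%. These fractions were picked out after their values were seen and were not tested. By CPM, 31.6% of all genes tested did not overlap between WT + TAM and Mtm1-/y + TAM muscle, in either direction. Between WT and Mtm1-/y muscle that share was 30.5%. The 5 of 16 is near such a share, which was not computed for fractions.

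Mtm1-/y muscle was compared with WT muscle for the effect of *Mtm1* loss. All 7 tested mRNAs fell, by 0.67 to 0.91 on the log2 scale. In all, 13 of the 16 tested members passed the test (edgeR quasi-likelihood, Benjamini-Hochberg adjusted p under 0.05 over 15533 genes), 13 lower and 0 higher. The 13 include *mt-Tq*, which passed the filter only through groups other than Mtm1-/y. With a minimum count of 30, or with only the groups compared, *mt-Tq* was not tested and 12 of 15 members were called. Of all genes tested, 30.4% passed in either direction and 14.9% were lower. The median log2 fold change was −0.78 for the 7 mRNAs and 0.00 for all tested genes. Scaling by library size alone moved the median of all genes to 0.15 and that of the mRNAs to −0.64, and lowered the fraction of called genes that were lower from 49.1% to 28.1%, with the same number of members called.

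For complex I, the NADH dehydrogenase that starts the chain, 5 mitochondrial subunits were tested. *mt-Nd1* measured 17280, 16432, 15469 and 15010 CPM in WT and 8337, 8366, 13286 and 8559 CPM in Mtm1-/y libraries. Every mutant value lay below every WT value, and *mt-Nd1* fell by 0.74 ± 0.18 on the log2 scale (SE, edgeR adjusted p = 0.00714). *mt-Nd2* measured 9953, 9941, 8632 and 8525 CPM in WT and 4302, 4580, 7142 and 4668 CPM in Mtm1-/y muscle (log2FC −0.84 ± 0.18, edgeR adjusted p = 0.00326). *mt-Nd4*, uncertain for its shared windows, was tight in WT at 9613, 9730, 9123 and 9150 CPM, against 5012, 5008, 6319 and 5053 CPM (log2FC −0.81 ± 0.15, edgeR adjusted p = 0.00103). The groups did not overlap for *mt-Nd2* or *mt-Nd4* either, and Mtm1-/y replicate 3 was the highest mutant library for all 3 genes.

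*mt-Nd5* measured 9273, 9664, 7445 and 7954 CPM in WT and 4558, 4482, 6464 and 4476 CPM in Mtm1-/y muscle (log2FC −0.78 ± 0.18, edgeR adjusted p = 0.00404), again with no overlap. *mt-Nd6* lay far lower, at 149, 159, 90.1 and 170 CPM against 58.1, 61.5, 88.9 and 92.9 CPM (log2FC −0.91 ± 0.21, edgeR adjusted p = 0.00531). Here WT replicate 3 fell within the mutant range. *mt-Nd6* ends within *mt-Nd5* on the opposite strand (13552 to 14070 against 11742 to 13565), and whether counting used strand is not stated, so reads of the overlap cannot be assigned.

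In complex III, the only mitochondrial subunit is *mt-Cytb*, with 21689, 21035, 19910 and 19158 CPM in WT and 10592, 11350, 14464 and 12752 CPM in Mtm1-/y muscle (log2FC −0.73 ± 0.16, edgeR adjusted p = 0.00324). In complex IV, *mt-Co1*, uncertain for its shared windows, measured 19312, 20565, 18656 and 19140 CPM against 10992, 11366, 14974 and 11571 CPM (log2FC −0.67 ± 0.17, edgeR adjusted p = 0.00797). Both pairs of groups were separate. Across the tested members, 11 of 16 had lower and non-overlapping levels in Mtm1-/y muscle, against 15.7% of all genes tested (30.5% in either direction).

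**Figure D3:**
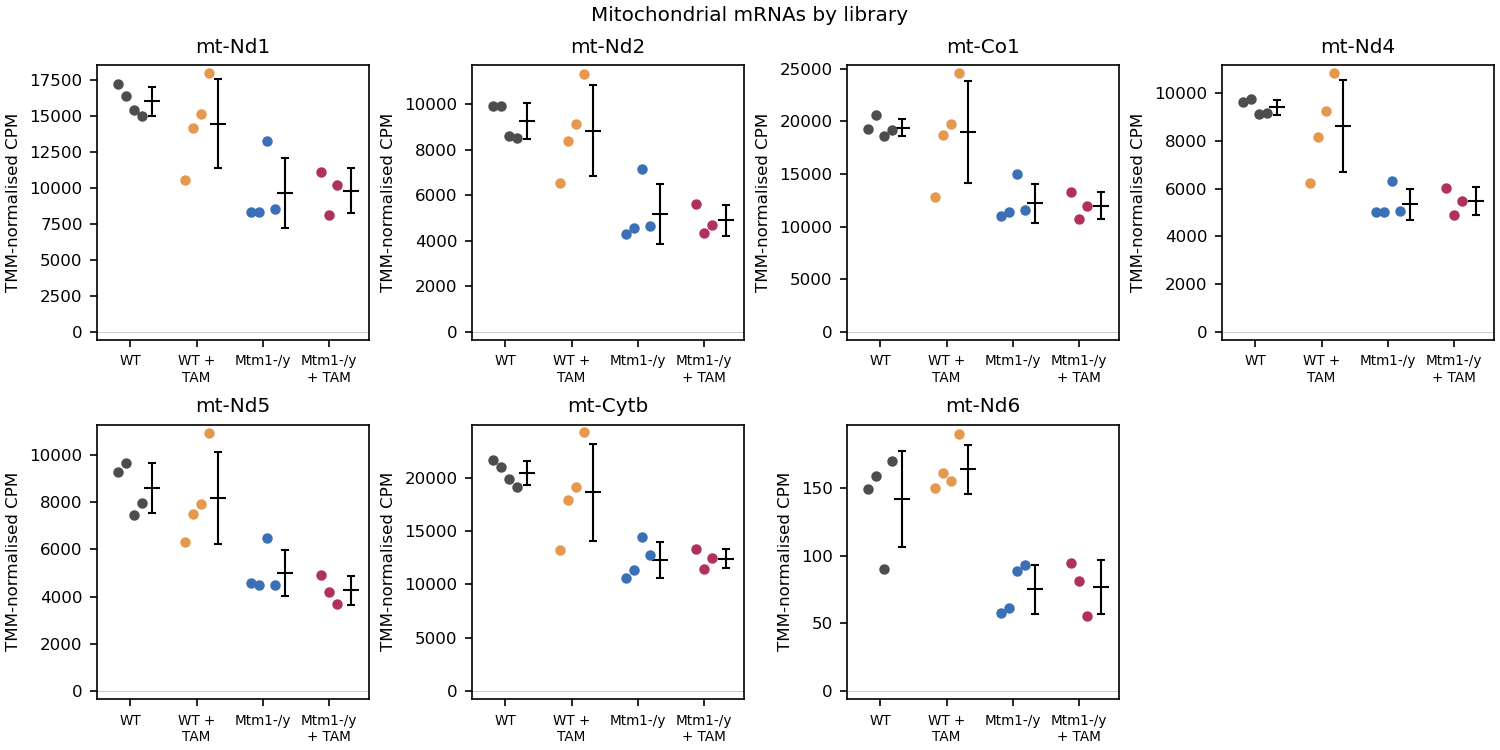
TMM-normalised CPM of the 7 tested mitochondrial mRNAs in each library (points), with group mean and SD (black) for WT, WT + TAM, Mtm1-/y (n = 4 each) and Mtm1-/y + TAM (n = 3). The Mtm1-/y libraries sit below all WT libraries except for *mt-Nd6*, where WT replicate 3 (90.1 CPM) lies within their range.

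Both rRNAs gave lower means that did not pass the test. *mt-Rnr1*, the small ribosomal RNA, measured 3.10, 3.87, 9.16 and 3.58 CPM in WT and 3.30, 3.23, 3.46 and 2.42 CPM in Mtm1-/y muscle (log2FC −0.66 ± 0.33, edgeR adjusted p = 0.151). *mt-Rnr2*, the large one, measured 7.01, 5.73, 17.3 and 4.34 CPM against 4.66, 4.03, 7.47 and 4.03 CPM (log2FC −0.76 ± 0.44, edgeR adjusted p = 0.212), on 100 to 422 counts per library. WT replicate 3 was the highest WT library for both.

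Counts of tRNA genes were low, in libraries selected for polyadenylated RNA, and 6 of the 7 tested fell. The 6 include *mt-Tq*, which passed the filter only through groups other than Mtm1-/y. Reads of mature tRNAs and of RNAs not yet cut cannot be told apart in these counts, so they do not measure mature tRNA. The 4 tRNA genes that border *mt-Nd1* or *mt-Nd2* on the same strand are printed here 5′ to 3′ as they lie on the plus strand, because each touches the mRNA it is set against in the ratios further on. Positions are chrM:2676-2750 for *mt-Tl1* (leucine), chrM:3706-3774 for *mt-Ti* (isoleucine), chrM:3845-3913 for *mt-Tm* (methionine) and chrM:4950-5016 for *mt-Tw* (tryptophan), from GENCODE M21, and capitals mark the anticodon. *mt-Ti* and *mt-Tw* overlap the last bases of *mt-Nd1* (2751 to 3707) and *mt-Nd2* (3914 to 4951).
mt-Tl1: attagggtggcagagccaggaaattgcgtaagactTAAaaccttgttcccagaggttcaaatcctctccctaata
mt-Ti: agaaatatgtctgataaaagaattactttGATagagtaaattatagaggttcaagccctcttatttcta
mt-Tm: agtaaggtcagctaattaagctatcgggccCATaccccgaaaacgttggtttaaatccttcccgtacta
mt-Tw: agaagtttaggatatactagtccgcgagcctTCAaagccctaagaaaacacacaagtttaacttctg

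The 3 tRNA genes with the highest mean count were *mt-Tl1* (201 counts), *mt-Tw* (176) and *mt-Ti* (159). *mt-Ti* measured 5.95, 9.997, 10.05 and 8.42 CPM in WT and 1.78, 2.30, 2.13 and 2.19 CPM in Mtm1-/y muscle, with no overlap (log2FC −2.03 ± 0.25, edgeR adjusted p = 5.58e-05). *mt-Tw* measured 6.59, 12.3, 6.33 and 6.60 CPM against 2.25, 2.86, 2.80 and 3.27 CPM (log2FC −1.50 ± 0.27, edgeR adjusted p = 0.000849). *mt-Tl1* measured 7.38, 12.2, 6.82 and 6.95 CPM against 2.85, 3.23, 6.17 and 2.96 CPM (log2FC −1.13 ± 0.31, edgeR adjusted p = 0.0138). WT replicate 2 was high and the mutant groups stayed below WT for both.

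*mt-Tm* measured 1.25, 1.34, 0.929 and 1.38 CPM in WT and 0.340, 0.524, 0.922 and 0.358 CPM in Mtm1-/y muscle (log2FC −1.22 ± 0.32, edgeR adjusted p = 0.0107). *mt-Tp* (proline, minus strand) measured 2.76, 3.24, 1.19 and 0.616 CPM against 0.0785, 0.605, 0.350 and 0.246 CPM (log2FC −2.67 ± 0.63, edgeR adjusted p = 0.00560), on 3 to 15 counts per mutant library. Both genes had separate groups, although the nearest values of each differed little. *mt-Tq* (glutamine, minus strand) measured 0.935, 1.74, 0.177 and 0.293 CPM against 0, 0, 0.127 and 0.202 CPM (log2FC −3.07 ± 0.81, edgeR adjusted p = 0.0107), with overlapping groups. *mt-Tt* (threonine) did not pass (log2FC −0.28 ± 0.46, edgeR adjusted p = 0.685).

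Set against the neighbouring mRNA of the same library, *mt-Ti* had 541 ± 136 counts per 1000000 counts of *mt-Nd1* in WT and 226 ± 51.0 in Mtm1-/y muscle (n = 4 each), with ranges of 344 to 649 and 160 to 275. This ratio was 500 ± 112 in WT + TAM and 313 ± 63.2 (n = 3) in Mtm1-/y + TAM muscle. For *mt-Tw* against *mt-Nd2*, on the same scale, the values were 851 ± 261, 922 ± 84.5, 560 ± 134 and 801 ± 152 in WT, WT + TAM, Mtm1-/y and Mtm1-/y + TAM muscle, and the WT and Mtm1-/y ranges overlapped. The other 3 pairs overlapped between WT and Mtm1-/y muscle as well. *mt-Tl1* against *mt-Nd1* gave 518 ± 149 and 384 ± 56.8, *mt-Tm* against *mt-Nd2* 133 ± 22.5 and 99.8 ± 26.0, and *mt-Tt* against *mt-Cytb*, with the higher mean in the mutants, 43.3 ± 12.6 and 56.7 ± 32.5. These ratios were not tested, and they do not separate mature tRNAs from RNAs not yet cut.

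**Figure D4:**
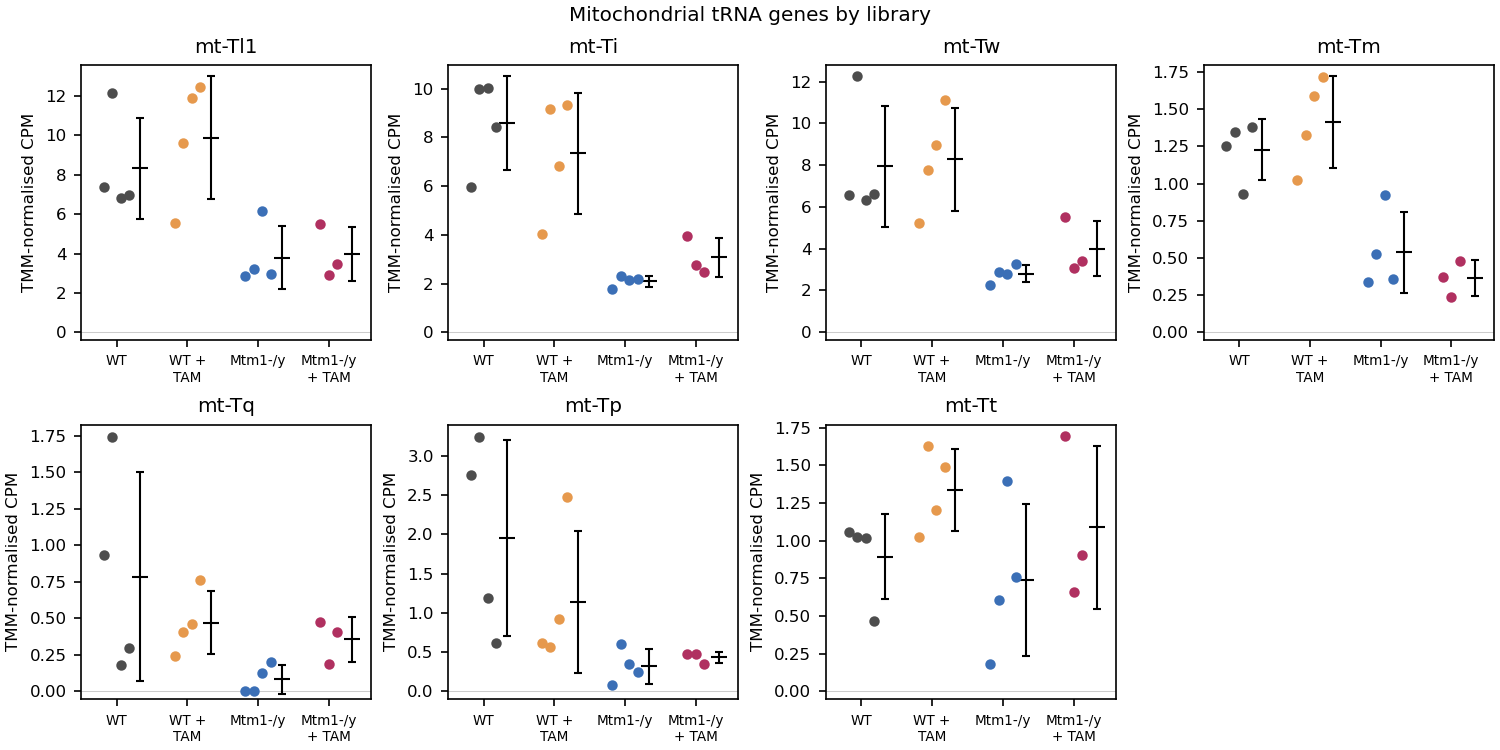
TMM-normalised CPM of the 7 tested tRNA genes in each library (points), with group mean and SD (black) for WT, WT + TAM, Mtm1-/y (n = 4 each) and Mtm1-/y + TAM (n = 3). *mt-Ti* shows the clearest separation of WT (5.95 to 10.05 CPM) from Mtm1-/y libraries (1.78 to 2.30 CPM), and *mt-Tt* none.

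Nuclear subunits of the same complexes were counted beside them, where 15.5% of all genes tested were called higher and 14.9% lower. Of 35 tested nuclear subunits of complex I, 3 rose and 5 fell, no more than these shares of all genes, with a median log2 fold change of −0.14. The 3 with the smallest adjusted p were *Ndufs1* (−0.70 ± 0.18, edgeR adjusted p = 0.00855), *Ndufa10* (−0.47 ± 0.13, edgeR adjusted p = 0.0124) and *Ndufs8* (−0.57 ± 0.16, edgeR adjusted p = 0.0148). *Ndufs1* and *Ndufs8* encode iron-sulfur subunits of the peripheral arm. Among 9 nuclear subunits of complex III, 0 rose and 3 fell (median 0.04), namely the core proteins *Uqcrc2* (−0.62 ± 0.16, edgeR adjusted p = 0.00775) and *Uqcrc1* (−0.55 ± 0.16, edgeR adjusted p = 0.0149) and the Rieske protein *Uqcrfs1* (−0.49 ± 0.15, edgeR adjusted p = 0.0248).

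Of the nuclear subunits of complex IV, 3 of 14 were higher and 0 lower, with a median log2 fold change of −0.0014. *Cox8a* (0.89 ± 0.18, edgeR adjusted p = 0.00176), *Cox6a1* (0.61 ± 0.14, edgeR adjusted p = 0.00530) and *Cox8b* (0.43 ± 0.15, edgeR adjusted p = 0.0399) were those that rose. For ATP synthase 0 of 16 nuclear subunits rose and 2 fell (median −0.16), which were *Atp5c1* (−0.46 ± 0.13, edgeR adjusted p = 0.0147) and *Atp5a1* (−0.47 ± 0.16, edgeR adjusted p = 0.0341), while *Atp5b* had −0.35 ± 0.14 (edgeR adjusted p = 0.0752). In complex II, which has no mitochondrial subunit, 1 of 4 fell, *Sdha* (−0.64 ± 0.15, edgeR adjusted p = 0.00555), with a median of −0.32. *Sdhb* (−0.36 ± 0.16, edgeR adjusted p = 0.0897) and *Sdhd* (−0.28 ± 0.17, edgeR adjusted p = 0.214) did not pass.

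Summed within a complex, the ratio of mitochondrial to nuclear subunit counts for complex I was 5.79 ± 0.541 in WT and 3.84 ± 0.525 in Mtm1-/y muscle. For complex III it was 5.04 ± 0.360 and 3.80 ± 0.256, and for complex IV 5.13 ± 0.427 and 3.27 ± 0.309 (SD, n = 4 each). None of the 3 ratios overlapped between the groups. The nuclear sums themselves overlapped, at 6673 to 7785 and 6017 to 7218 counts per 1000000 for complex I. The complex I and IV ratios hold counts of the uncertain *mt-Nd4* and *mt-Co1*, the complex III ratio holds none, and no ratio carries a test.

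**Figure D5:**
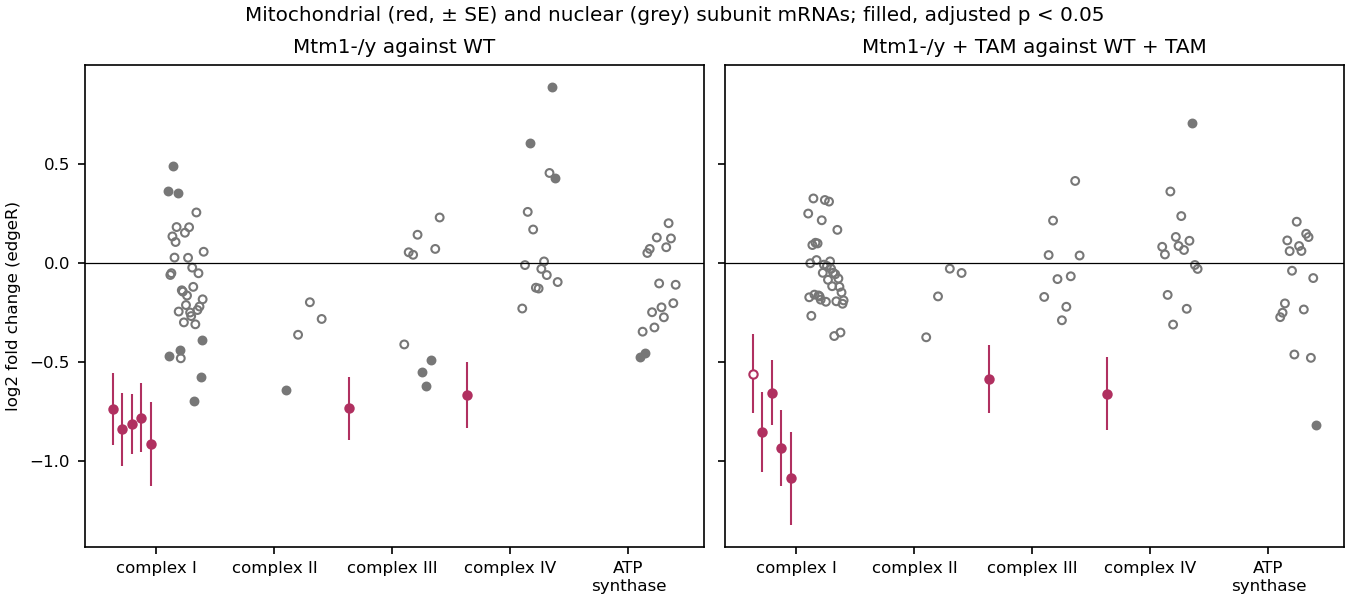
Log2 fold change (edgeR) of mitochondrial (red, ± SE) and nuclear (grey) subunit mRNAs of each respiratory complex, for Mtm1-/y against WT (left) and Mtm1-/y + TAM against WT + TAM (right), with filled points past an adjusted p of 0.05. The 7 mitochondrial mRNAs lie at −0.67 to −0.91 on the left, while complex I nuclear subunits spread from −0.70 to 0.49.

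Of nuclear genes for mitochondrial transcription, RNA processing and DNA upkeep, 3 of 32 were higher and 5 lower, near the 15.5% and 14.9% of all genes, with a median of −0.15. The 3 that rose also had the smallest adjusted p. They were *Rexo2*, an oligoribonuclease (0.38 ± 0.08, edgeR adjusted p = 0.00213), *Hsd17b10*, a subunit of the RNase P that cuts tRNAs at the 5′ end (0.49 ± 0.11, edgeR adjusted p = 0.00299), and *Elac2*, which cuts them at the 3′ end (0.33 ± 0.08, edgeR adjusted p = 0.00594). The 5 that fell were *Fastkd1*, *Fastkd2*, *Pnpt1*, *Mterf2* and *Twnk*, named after their values were seen, at −0.33 to −0.46.

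Markers of cell and fibre types were counted as well, where 15.5% of all genes tested were called higher and 14.9% lower. All 5 endothelial markers fell, and their summed level was 414 to 548 CPM in WT and 219 to 295 CPM in Mtm1-/y muscle. The 3 with the smallest adjusted p were *Cdh5* (−1.06 ± 0.17, edgeR adjusted p = 0.000400), *Tie1* (−0.73 ± 0.16, edgeR adjusted p = 0.00366) and *Kdr* (−1.78 ± 0.38, edgeR adjusted p = 0.00401). Of 10 slow and oxidative fibre markers 1 fell, the light chain *Myl3* (−3.81 ± 0.48, edgeR adjusted p = 0.000125), and their sum was 3756 to 5224 CPM in WT and 3444 to 3911 CPM in Mtm1-/y muscle. *Tnni1* (2.65 ± 1.02, edgeR adjusted p = 0.0656) and *Mb* (−0.35 ± 0.17, edgeR adjusted p = 0.135) followed. Of the 10 slow markers 4 had a negative log2 fold change, the median was 0.34, and the ranges of the sums overlapped. Of 9 fast fibre markers 1 fell, *Tnnt3* (−0.51 ± 0.11, edgeR adjusted p = 0.00299), ahead of *Mylpf* (−0.29 ± 0.14, edgeR adjusted p = 0.142) and *Tnni2* (−0.22 ± 0.11, edgeR adjusted p = 0.145), and their sums overlapped.

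Among 8 macrophage markers 2 rose, *Cd14* (0.92 ± 0.27, edgeR adjusted p = 0.0167) and *Cd68* (1.87 ± 0.57, edgeR adjusted p = 0.0238), with sums of 16.7 to 27.7 CPM in WT and 16.6 to 39.2 CPM in Mtm1-/y muscle. Among 5 fibroblast markers 1 rose (*Pdgfra* 0.76 ± 0.20, edgeR adjusted p = 0.00960), with sums of 973 to 1257 and 324 to 1322 CPM. None of 8 adipocyte and 5 blood markers passed in edgeR (1 and 0 at an unadjusted p under 0.05). Blood sums were 69.1 to 96.2 CPM in WT and 14.9 to 66.5 CPM in Mtm1-/y muscle, and adipocyte sums 191 to 231 and 150 to 215 CPM. These lists are short, and of all genes tested 15.5% were called higher and 14.9% lower. The part of these cell types in the mitochondrial values was not tested.

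Under tamoxifen the genotypes were compared again, Mtm1-/y + TAM against WT + TAM. Of the 16 tested members, 10 fell and 0 rose (edgeR adjusted p under 0.05), where 20.1% of all genes passed in either direction and 9.46% were lower. The median log2 fold change was −0.66 for the 7 mRNAs and −0.02 for all tested genes. With library size alone these medians were −0.50 and 0.14, 22.6% instead of 47.1% of called genes were lower, and 10 members were called. The WT + TAM libraries were more spread than the WT libraries, and 8 of 16 members had lower and non-overlapping levels, against 14.4% of all genes (17.2% were higher and 31.6% in either direction).

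*mt-Nd6* showed the largest mRNA difference, with 150, 161, 155 and 190 CPM in WT + TAM and 94.6, 81.6 and 55.2 CPM in Mtm1-/y + TAM muscle (log2FC −1.09 ± 0.23, edgeR adjusted p = 0.00523). *mt-Nd5* measured 6323, 7488, 7932 and 10912 CPM against 4919, 4189 and 3706 CPM (log2FC −0.93 ± 0.19, edgeR adjusted p = 0.00382). *mt-Nd2* measured 6531, 8379, 9162 and 11350 CPM against 5644, 4343 and 4716 CPM (log2FC −0.85 ± 0.20, edgeR adjusted p = 0.00813). The groups were separate for these 3 complex I subunits, with WT + TAM replicate 1 the lowest of its group each time.

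*mt-Nd4* measured 6249, 8176, 9243 and 10855 CPM in WT + TAM against 6037, 4893 and 5500 CPM in Mtm1-/y + TAM muscle (log2FC −0.66 ± 0.16, edgeR adjusted p = 0.0112). *mt-Co1* measured 12791, 18731, 19730 and 24622 CPM against 13272, 10753 and 11984 CPM (log2FC −0.66 ± 0.18, edgeR adjusted p = 0.0198). *mt-Cytb* measured 13225, 17900, 19122 and 24290 CPM against 13284, 11454 and 12504 CPM (log2FC −0.59 ± 0.17, edgeR adjusted p = 0.0272). For *mt-Co1* and *mt-Cytb* WT + TAM replicate 1 lay below the highest mutant library. *mt-Nd1* did not pass with 10545, 14196, 15190 and 18019 CPM against 11143, 8119 and 10242 CPM (log2FC −0.56 ± 0.20, edgeR adjusted p = 0.0581), and it did pass without WT + TAM replicate 1.

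Of the tRNA genes, *mt-Tm* measured 1.02, 1.33, 1.59 and 1.72 CPM in WT + TAM and 0.371, 0.238 and 0.478 CPM in Mtm1-/y + TAM muscle (log2FC −1.96 ± 0.38, edgeR adjusted p = 0.00236), on 7 to 19 counts in the mutants. *mt-Ti* measured 4.05, 9.18, 6.83 and 9.34 CPM against 3.98, 2.78 and 2.47 CPM (log2FC −1.27 ± 0.27, edgeR adjusted p = 0.00471). *mt-Tl1* measured 5.56, 9.63, 11.9 and 12.5 CPM against 5.51, 2.91 and 3.47 CPM (log2FC −1.34 ± 0.35, edgeR adjusted p = 0.0145). In all 3 the groups were separate, *mt-Ti* and *mt-Tl1* by a narrow gap to WT + TAM replicate 1.

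*mt-Tw* measured 5.23, 7.75, 8.98 and 11.1 CPM against 5.51, 3.07 and 3.40 CPM (log2FC −1.07 ± 0.29, edgeR adjusted p = 0.0179) and overlapped. *mt-Tq*, *mt-Tp*, *mt-Tt* and both rRNAs did not pass, at log2 fold changes of −0.09 to −1.41. The calls rested on single libraries for some members. Without Mtm1-/y + TAM replicate 2, 5 members were called, and *mt-Co1*, *mt-Cytb*, *mt-Nd4*, *mt-Tl1* and *mt-Tw* no longer passed. Without Mtm1-/y + TAM replicate 3, 6 were called, and *mt-Co1*, *mt-Cytb*, *mt-Tl1* and *mt-Tw* were lost. Without WT + TAM replicate 4, 7 were called, and *mt-Co1*, *mt-Cytb* and *mt-Tw* were lost. *mt-Cytb* was also lost without WT + TAM replicate 3, without Mtm1-/y + TAM replicate 1 and with the replicate number as a block. Fitting only the groups compared lost *mt-Co1* and *mt-Cytb*.

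The nuclear subunits were counted in the same comparison, where 10.6% of all genes tested were called higher and 9.46% lower. Of 35 in complex I 0 passed (median −0.06), of 9 in complex III 0 (median −0.07) and of 4 in complex II 0 (median −0.11), in edgeR, each with 1 at an unadjusted p under 0.05. Of 14 in complex IV 1 rose (*Cox8a*, 0.71 ± 0.19, edgeR adjusted p = 0.0163), and of 16 in ATP synthase 1 fell (*Usmg5*, named after its value was seen, −0.82 ± 0.19, edgeR adjusted p = 0.00731). The complex I ratio of mitochondrial to nuclear counts was 5.49 ± 0.376 in WT + TAM (n = 4) and 3.49 ± 0.458 in Mtm1-/y + TAM muscle (n = 3), the complex III ratio 4.84 ± 0.388 and 3.43 ± 0.238, and the complex IV ratio 4.79 ± 0.398 and 3.08 ± 0.280, without overlap. WT + TAM replicate 1, lowest of its group in mitochondrial share, lay within the group in complex I ratio (5.61) and complex III ratio (5.05). In complex IV ratio it was the lowest, at 4.46 against 4.54 to 5.34. Its nuclear complex I level was low as well (5294 counts per 1000000 against 7272 to 8011 in the other 3). Of 32 transcription and processing genes, 3 rose and 1 fell, no more than the 10.6% and 9.46% of all genes. *Rexo2* rose again (0.42 ± 0.08, edgeR adjusted p = 0.00292). Endothelial sums were 270 to 493 CPM in WT + TAM and 222 to 289 CPM in Mtm1-/y + TAM muscle, with 3 of 5 markers lower.

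Mtm1-/y + TAM was compared with Mtm1-/y muscle for an effect of tamoxifen on the mutants. None of the 16 tested members passed, in edgeR, DESeq2 or limma-voom, against 0.0129% of all genes in edgeR. At an unadjusted p under 0.05 there were 0 in edgeR, 1 in DESeq2 and 1 in limma-voom. The median log2 fold change was 0.01 for the mRNAs, and −0.07 without Mtm1-/y replicate 1. The 3 mRNAs or rRNAs with the smallest adjusted p were as follows. *mt-Rnr1* measured 5.83, 2.65 and 4.83 CPM with and 3.30, 3.23, 3.46 and 2.42 CPM without tamoxifen (log2FC 0.51 ± 0.36, edgeR adjusted p = 0.877). *mt-Nd5* measured 4919, 4189 and 3706 CPM with and 4558, 4482, 6464 and 4476 CPM without (log2FC −0.23 ± 0.19, edgeR adjusted p = 0.884). *mt-Rnr2* measured 8.96, 2.81 and 7.60 CPM with and 4.66, 4.03, 7.47 and 4.03 CPM without (log2FC 0.34 ± 0.48, edgeR adjusted p = 0.919). The groups overlapped in each of these. *mt-Ti* was the only tested member whose groups were separate, at 2.47 to 3.98 against 1.78 to 2.30 CPM (log2FC 0.53 ± 0.27, edgeR adjusted p = 0.855), where 5.71% of all genes did not overlap, 3.33% higher and 2.38% lower. None of the 110 tested nuclear subunits and processing genes passed in edgeR (3 at an unadjusted p under 0.05). The slow fibre sum was 4855 to 5102 CPM with and 3444 to 3911 CPM without tamoxifen, while 0 of its 10 markers passed. Nuclear subunit sums of complex I (7260 to 7794 against 6017 to 7218 counts per 1000000) did not overlap either. Nor did those of complex III (3750 to 4042 against 2945 to 3622), whereas those of complex IV overlapped. These sums were not tested.

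WT + TAM was compared with WT muscle for an effect of tamoxifen in wild-type mice. None of the 16 members passed in edgeR, DESeq2 or limma-voom, against 0.309% of all genes in edgeR, and 0 had an unadjusted p under 0.05 in any of these tools. *mt-Nd6* measured 150, 161, 155 and 190 CPM with and 149, 159, 90.1 and 170 CPM without tamoxifen (log2FC 0.21 ± 0.21, edgeR adjusted p = 0.764). *mt-Cytb* measured 13225, 17900, 19122 and 24290 CPM with and 21689, 21035, 19910 and 19158 CPM without (log2FC −0.13 ± 0.16, edgeR adjusted p = 0.803), and *mt-Nd4* had −0.12 ± 0.15 (edgeR adjusted p = 0.806), with 6249, 8176, 9243 and 10855 CPM against 9613, 9730, 9123 and 9150 CPM. The median log2 fold change of the mRNAs was −0.07, and 0.03 without WT + TAM replicate 1, and the mitochondrial share differed by −0.467 percentage points, and by 0.150 without that library. All 16 members overlapped between the groups, where 8.08% of all genes did not (4.22% higher and 3.86% lower). The spread was wider with tamoxifen, with WT + TAM replicate 1 lowest and replicate 4 highest for *mt-Cytb* and *mt-Nd4*.

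A difference in tamoxifen response between genotypes was tested as the interaction term. None of the 16 members passed, in edgeR, DESeq2 or limma-voom, and neither did any gene in edgeR (0%). At an unadjusted p under 0.05 there was 1 member in each of the 3 tools, in edgeR *mt-Tq* (log2 difference 2.62 ± 1.14, unadjusted p = 0.0371, edgeR adjusted p = 0.451). No Mtm1-/y library reached the filter's level for *mt-Tq*, so its value carries little weight. *mt-Rnr1* (0.56 ± 0.49, edgeR adjusted p = 0.691), *mt-Rnr2* (0.66 ± 0.65, edgeR adjusted p = 0.725) and *mt-Nd4* (0.16 ± 0.22, edgeR adjusted p = 0.814) had the smallest adjusted p among mRNAs and rRNAs, with the library values given above. The genotype difference of *mt-Nd1*, past the threshold without but not with tamoxifen, was thus not shown to differ between the treatments (0.18 ± 0.27, edgeR adjusted p = 0.832). The 4 comparisons share groups, so they are not independent of each other.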

How the data were processed

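The authors deposited raw read counts per Ensembl gene, a column per sample, with no normalization. Per the labels, RNA was extracted with TRI Reagent and libraries were TruSeq Stranded mRNA, and the submitters' processing notes list STAR 2.5.3a, HTSeq 0.6.1p1, cutadapt 1.10 and Bowtie2 2.2.8, with the builds mm10 and GRCm38, without roles. The annotation release, the strand setting and the read length were not stated. All 30672 identifiers matched GENCODE M21. Members and gene lists were chosen with earlier results of these data known, and 1 marker list is not reported here.

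Counts were fitted with edgeR 4.0.16 in R 4.3.3 (filterByExpr with minimum count 10, 15533 genes, TMM factors, robust quasi-likelihood, 4 group means over all 15 libraries), with Benjamini-Hochberg adjustment over all tested genes. CPM were scaled by library size and TMM factor, shares by library size. Sharing with nuclear copies was the percentage of 50-base windows found exactly in an annotated nuclear transcript, and the nearest copy came from blastn 2.17.0. No genome sequence was searched. The fit was tested on simulated data of 15186 genes for Mtm1-/y against WT. It called 12.4% of genes changed 1.5-fold, 70.6% of those changed 2-fold and 97.0% of those changed 4-fold. Of its calls, 4.77% were false. The simulation gave every gene the same spread and changed few genes, whereas 30.4% of genes were called in the real comparison. These percentages therefore need not hold for the real data.

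Named genes were all members, described in every library where called in a contrast, otherwise the 3 mRNAs or rRNAs with the smallest adjusted p, the 3 tRNA genes with the most counts, and the 3 genes of each nuclear list with the smallest adjusted p in Mtm1-/y against WT. Labels give the samples a replicate number only, and each was taken as a separate mouse, so p-values measure the spread between these samples. Replicate pairs differed beyond sampling noise (chi-square per degree of freedom of at least 11.3). Alternatives were other scalings, filters and tools, a replicate block, subsets of groups and leaving out libraries.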

Additional observations from a re-analysis of the deposited data

Results flagged for a closer look

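Of 66 groups of 4 libraries examined for a library far from the rest by Dixon's criterion, 12 had one, where chance gives about 1 in 20. The groups are members, shares and ratios of the same libraries, so they are not independent and 1 library can count repeatedly. Mtm1-/y replicate 3 accounted for 6 of the 12 and was high each time. It had 13286 CPM of *mt-Nd1* (mean of the other 3, 8421), 7142 of *mt-Nd2* (4517), 14974 of *mt-Co1* (11310), 6319 of *mt-Nd4* (5024), 6464 of *mt-Nd5* (4505) and 6.17 of *mt-Tl1* (3.01). Without this library 13 members were still called in Mtm1-/y against WT. In WT muscle, replicate 3 was high in *mt-Rnr1* (9.16 CPM against a mean of 3.52 in the other 3) and in the rRNA share of all counts (0.00262% against 0.000857%). WT replicate 2 was high in *mt-Tl1* (12.2 CPM against 7.05) and *mt-Tw* (12.3 CPM against 6.51), and WT replicate 4 was low in *mt-Tt* (0.469 CPM against 1.03). WT + TAM replicate 3 was high in *mt-Rnr2* (10.2 CPM against 5.64).

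*Gm28437*, the nuclear copy of *mt-Co3*, was looked at as a gene outside the mitochondrial chromosome. It had 1929 counts in Mtm1-/y replicate 4 and 0 to 5 counts in the other 14 libraries, while *mt-Co3* itself had 0 counts in that library.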

How the results depend on the processing

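In Mtm1-/y against WT, 12 to 14 members were called under all alternatives, with 13 to 14 when single libraries were left out. In Mtm1-/y + TAM against WT + TAM, other scalings, filters and tools gave 10 to 11, fitting only the groups compared gave 8, and leaving out single libraries gave 5 to 11. In both tamoxifen comparisons and the interaction, 0 members were called under every alternative. Replicate numbers did not pair the samples (correlation of deviations −0.11 to 0.31 over 21 same-numbered pairs, 6 above 0.1). With the replicate number as a block the counts were 13, 0, 0, 9 and 0 in the order of Mtm1-/y against WT, tamoxifen in Mtm1-/y, tamoxifen in WT, Mtm1-/y + TAM against WT + TAM and the interaction. The share difference of Mtm1-/y from WT was −3.89 percentage points without the 10 most abundant nuclear genes in the denominator and −1.80 without the uncertain genes, both by construction, and −2.57 to −2.97 without single libraries. Of 611 alternative values of single members, 592 kept direction and side of the threshold, 17 fell short of it, all in Mtm1-/y + TAM against WT + TAM, and 2 reversed. These were *mt-Nd4* in WT + TAM against WT, at 0.0033 without WT + TAM replicate 1 (−0.25 to 0.0033 over single libraries left out) and 0.0038 without that library and Mtm1-/y replicate 1 together. Counts of all called genes in tamoxifen against untreated WT muscle were 48 in edgeR, 298 in DESeq2 and 111 without WT + TAM replicate 1, and in the interaction 0, 74 and 7.

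Counting error was small for the 7 tested mRNAs, at 1526 or more counts per library, and larger for *mt-Tq*, *mt-Tm*, *mt-Tt* and *mt-Tp*, which had 0 to 112 counts.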
